A study of Mus musculus with 12 samples.

Results

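Fibroblast growth factor (FGF) signalling genes were followed across the zones and genotypes of mouse cartilage cells. The 10 genes were taken by name from the deposited table, which lists 17536 genes in all, and comprise 2 ligands (Fgf2 and Fgf18), 3 receptor kinases (Fgfr1, Fgfr2 and Fgfr3), the receptor-like gene Fgfrl1 and 4 genes of negative feedback (Spry1, Spry2, Spry4 and Dusp6). Each of the 10 matched 1 entry. RNA was sequenced from superficial zone (SFZ) and deep zone (DZ) chondrocytes of C57BL/6J mice at 5 days of age, to ask what loss of Runx3 does to gene expression in each zone. R3-Cntl mice carry floxed Runx3 alleles (Runx3 fl/fl) without Cre, and R3-cKO mice carry the same alleles with Col2a1-Cre, a recombinase driven by the promoter of a cartilage collagen gene. Each combination of zone and genotype has 3 libraries, 12 in all.

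All mice of both genotypes share the floxed alleles, and R3-cKO differs by the Cre transgene, which acts only in cells that have used the Col2a1 promoter. The methods of the study describe SFZ cells as those released from the ends of femur and tibia by a first digestion, DZ cells as those released by a longer second digestion, and culture of such cells as a monolayer on fibronectin. Zone and digestion therefore cannot be told apart. Values are FPKM, fragments scaled to transcript length and sequencing depth, a unit inferred from the values themselves, and they sum to 392241 to 429213 FPKM per library. Read depth is unknown, so the spread between libraries is the only error given.

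FGFs are secreted proteins that bind receptor tyrosine kinases together with heparan sulfate, and the activated receptors signal through Frs2, Ras and the ERK kinases. In growing cartilage FGFR3 restrains chondrocyte proliferation, and activating mutations of its gene cause achondroplasia, while FGFR1 and FGFR2 are prominent in less differentiated mesenchyme and perichondrium. Sprouty proteins and the ERK phosphatase DUSP6 are induced by the pathway and dampen it, so their transcripts are often read as a record of recent ERK signalling.

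Runx3 (Entrez gene 12399) is the targeted gene. In SFZ cells its level was 10.7, 5.98 and 6.65 FPKM in R3-Cntl replicates 1 to 3 and 11.8, 9.07 and 3.42 FPKM (R3-cKO). In DZ cells the corresponding values were 12.7, 12.7 and 7.66 FPKM and 15.95, 12.7 and 8.14 FPKM. The genotype groups overlapped in both zones and Runx3 was not lower in the libraries labelled R3-cKO, although a value summed over the gene does not show whether the floxed part was present. Genotype is therefore given by its label throughout.

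Markers were read before the FGF genes, because the libraries are bulk samples in which fewer cells of a type and less RNA per cell cannot be told apart. The 13 cartilage matrix and growth plate genes, of which Col2a1 was the most abundant, summed to 14501, 5036 and 9478 FPKM (R3-Cntl SFZ, replicates 1 to 3) and to 12700, 7844 and 5766 FPKM (R3-cKO SFZ). In the DZ they summed to 35647, 22122 and 28890 FPKM (R3-Cntl) and to 23418, 15954 and 28486 FPKM (R3-cKO). Every DZ library lay above every SFZ library, and none of these genes was below 1 FPKM throughout. The 10 fibroblast and mesenchyme genes, led by Col1a1, ran the other way, at 4211, 8014 and 4617 FPKM (R3-Cntl SFZ), 4409, 3961 and 11280 FPKM (R3-cKO SFZ), 453, 875 and 2723 FPKM (R3-Cntl DZ) and 450, 807 and 2062 FPKM (R3-cKO DZ). The superficial zone list, led by Abi3bp, summed to 347 to 1488 FPKM in the SFZ and 70.7 to 185 FPKM in the DZ. Within that list Prg4, Erg, Tnc and Clu overlapped between zones, and Gdf5 had the higher mean in the DZ, at 7.22 against 3.65 FPKM in the SFZ. Of the fibroblast list, Dcn ran the other way, with a mean of 161 FPKM in the SFZ and 352 FPKM in the DZ.

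Other cell types were near the floor or varied between libraries. Macrophage genes, led by Lyz2, summed to 160, 130 and 6.37 FPKM (R3-Cntl SFZ) and to 127, 13.3 and 59.1 FPKM (R3-cKO SFZ), against 3.30 to 20.9 FPKM in the DZ, and Ptprc, which marks blood cells in general, stayed under 1 FPKM in every library. Muscle genes reached 89.4 FPKM in R3-Cntl SFZ replicate 2, with Acta1 the most abundant and Ckm under 1 FPKM in every library. The endothelial and keratinocyte lists summed to at most 5.50 and 2.71 FPKM in a library, with Pecam1 and Krt10 their most abundant genes, and Kdr, Tek, Krt5, Krt14 and Krt1 stayed under 1 FPKM throughout. Tendon genes, led by Tnmd, summed to 35.7 to 123 FPKM in the SFZ and to 6.22 to 19.5 FPKM in the DZ, and osteoblast genes, led by Spp1, to 266 to 663 and 334 to 1051 FPKM, with Dmp1 under 1 FPKM throughout. What part the cell mixture has in any zone difference below was not tested.

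The receptors were expressed at a level well above the ligands and feedback genes in both zones. Over the 6 SFZ libraries the mean FPKM ran from Fgfr2 at 79.5 ± 19.7 (SD, n = 6) through Fgfr1 at 59.4 ± 14.1, Fgfr3 at 59.3 ± 31.5 and Fgfrl1 at 56.5 ± 7.94 to Spry2 at 8.65 ± 2.36. Below these came Dusp6 at 6.42 ± 2.18, Spry1 at 5.52 ± 2.31, Fgf2 at 3.43 ± 1.31, Fgf18 at 1.95 ± 0.795 and Spry4 at 1.67 ± 0.592 FPKM. Fgfr1, Fgfr3 and Fgfrl1 cannot be ranked by means so close together. In the DZ Fgfr3 led at 156 ± 39.3, followed by Fgfrl1 at 113 ± 27.7, Fgfr2 at 52.4 ± 16.1 and Fgfr1 at 52.1 ± 30.7 FPKM. Then came Dusp6 at 4.57 ± 2.59, Spry2 at 4.13 ± 1.98, Fgf2 at 2.06 ± 1.18, Fgf18 at 0.987 ± 0.577, Spry1 at 0.600 ± 0.498 and Spry4 at 0.492 ± 0.216 FPKM. Fgfr2 and Fgfr1 had nearly the same mean there, and the receptors again stood far above the rest.

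**Figure D1:**
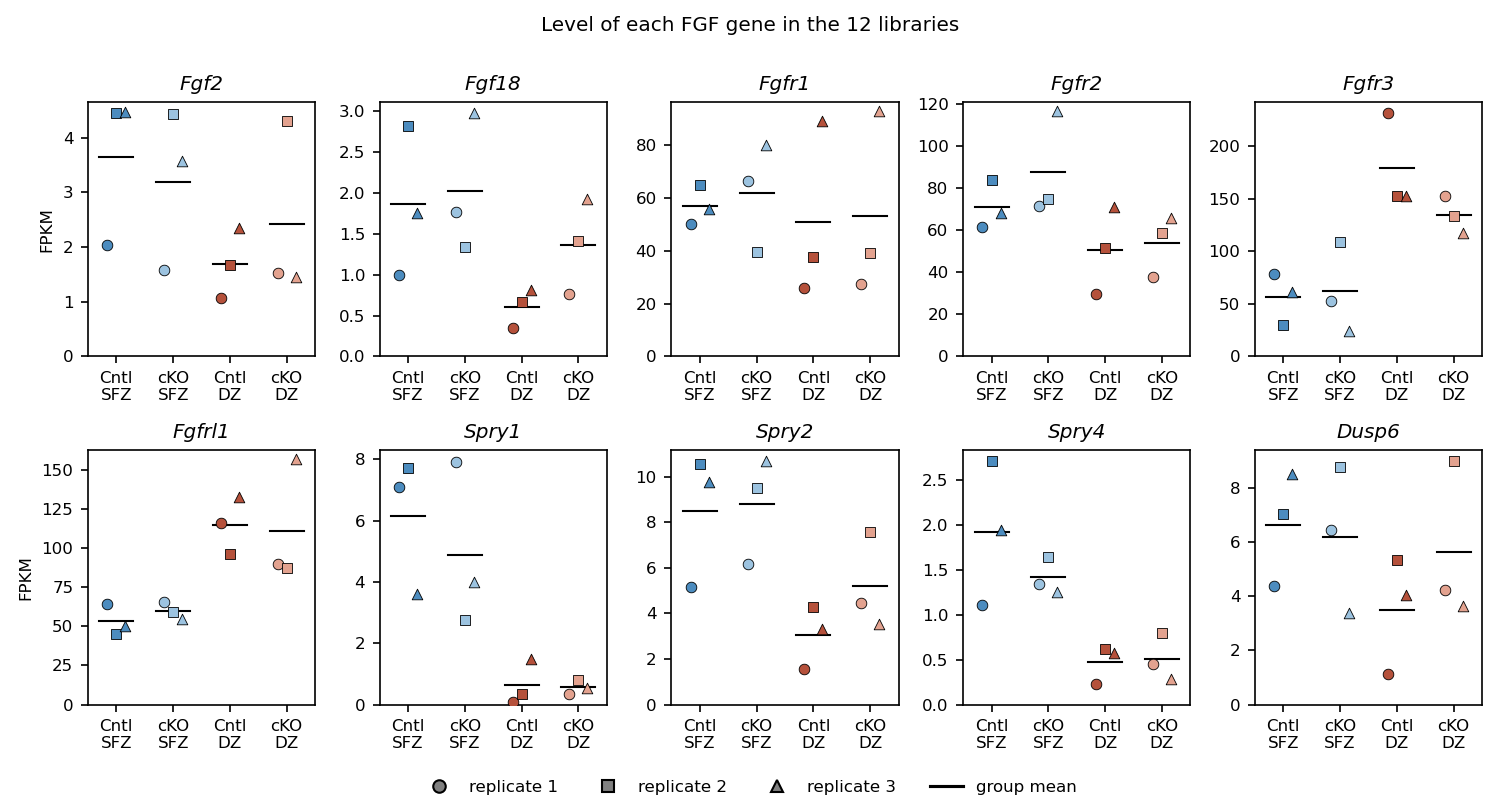
Level of each of the 10 FGF genes (FPKM, linear axis from 0) in the 12 libraries, by genotype label and zone, with a symbol for each replicate number and a line at each group mean. Fgfr3 and Fgfrl1 are higher in all 6 DZ libraries than in any SFZ library, Spry1 and Spry4 are lower in all 6, and the genotype labels overlap in nearly every panel.

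Zones were compared over both genotypes with limma on log2(FPKM + 1), with genotype in the model, keeping the genes that reached 1 FPKM in 3 or more of the 12 libraries. A figure legend of the study names 3 mice per genotype as the source of both zones, so the zones share animals, while this fit and the permutation of 6 against 6 libraries treat all 12 as independent. Which SFZ and DZ libraries come from the same mouse is not stated. At a Benjamini-Hochberg adjusted p under 0.05, 5 of the 10 FGF genes were called, against 23.2% of the 11765 genes tested. Of these, 2 were higher in the DZ (Fgfr3 and Fgfrl1), where 4.30% of all genes were called higher, and 3 were lower (Spry1, Spry2 and Spry4), where 18.9% were called lower. All 10 passed the filter on low values, but Spry4 reached 1 FPKM only in the 6 SFZ libraries, and Spry1 and Fgf18 in those and in 1 and 2 DZ libraries. Their place among tested genes thus already depended on the zone where they were high. The median difference of all genes tested was -0.14 on this scale, with 506 called higher and 2219 lower. Median-of-ratios scaling moved that median to 0.00 with 1053 higher and 1088 lower, and quantile normalization moved it to 0.03 with 1237 higher and 915 lower. The 5 calls and the direction of all 10 genes held under both scalings, and the differences below are best read against a shift of that size. Differences on the log2(FPKM + 1) scale understate the change of genes with low values.

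**Figure D2:**
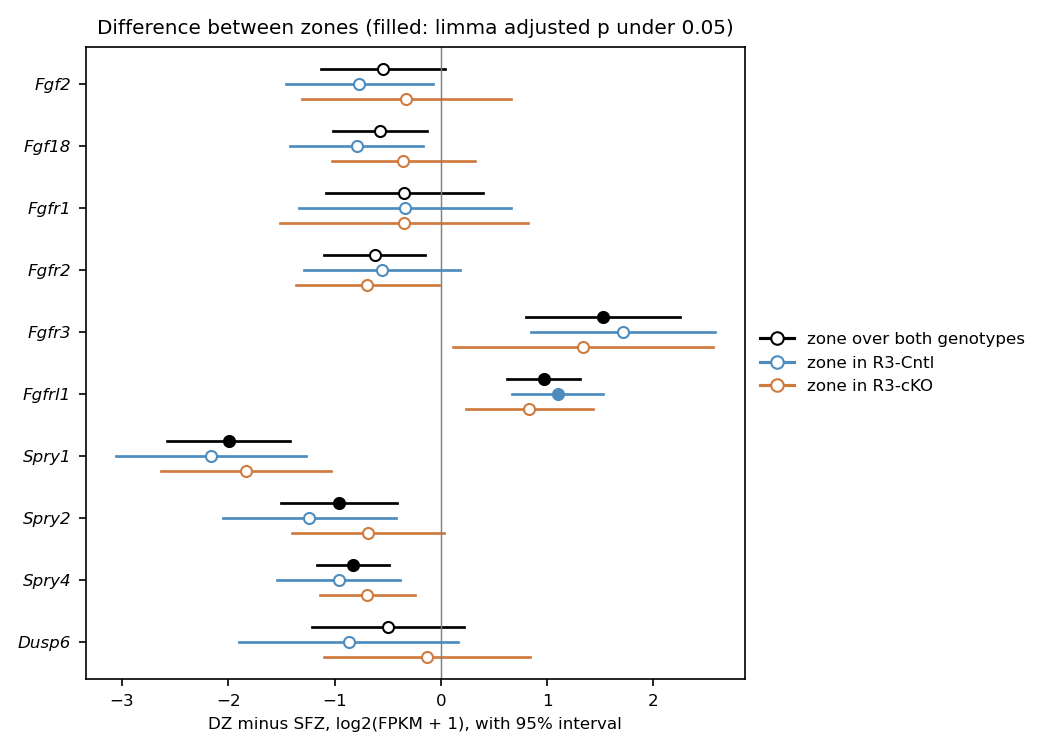
Difference between zones for each FGF gene, DZ minus SFZ in log2(FPKM + 1), over both genotypes (black), within R3-Cntl (blue) and within R3-cKO (orange). Circles are limma estimates with 95% intervals, filled where the adjusted p is under 0.05. Fgfr3 and Fgfrl1 lie to the right of 0 and the Sprouty genes to the left, with wide intervals within each genotype.

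The ligand Fgf2 (Entrez gene 14173), a broad mitogen that is stored in the cartilage matrix, lies on mm9 chromosome 3 at 37211441 to 37304299 on the forward strand. Its annotated span touches Nudt6 on the opposite strand, and since strand use in counting is not given in the sources used here, its values may hold reads of that neighbour. Fgf2 measured 2.04, 4.45 and 4.48 FPKM (R3-Cntl SFZ), 1.58, 4.43 and 3.58 FPKM (R3-cKO SFZ), 1.06, 1.68 and 2.35 FPKM (R3-Cntl DZ) and 1.52, 4.30 and 1.45 FPKM (R3-cKO DZ). Replicate 1 was low in both SFZ groups and R3-cKO DZ replicate 2 was close to the upper SFZ libraries, so the zones overlapped. The difference of -0.54 (SE 0.27, limma adjusted p = 0.160) did not pass, and the exact two-sided permutation test of 6 against 6 libraries gave p = 0.0931. It passed without R3-cKO DZ replicate 2, at -0.73 with a limma adjusted p of 0.0424. Fgf2 also passed with the replicate number as a block (limma adjusted p = 0.0313), although which libraries share a mouse is not stated.

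Fgf18 (Entrez gene 14172), a ligand that acts on FGFR3 in growth plate and joint cartilage, lies on chromosome 11 at 33017430 to 33047400 on the reverse strand. It measured 1.0, 2.82 and 1.76 FPKM (R3-Cntl SFZ), 1.77, 1.34 and 2.98 FPKM (R3-cKO SFZ), 0.35, 0.66 and 0.81 FPKM (R3-Cntl DZ) and 0.76, 1.41 and 1.93 FPKM (R3-cKO DZ). The 3 R3-Cntl DZ libraries were the lowest but for R3-cKO DZ replicate 1, and the R3-cKO DZ libraries reached into the SFZ range. The difference was -0.57 (SE 0.20, limma adjusted p = 0.0621; exact permutation p = 0.0325), short of the threshold. Leaving out R3-cKO SFZ replicate 2 or R3-cKO DZ replicate 3 brought it to -0.67 each time, with limma adjusted p of 0.0344 and 0.0436. Fgf18 also passed with the replicate number as a block (limma adjusted p = 0.0247), under the same limit as Fgf2.

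Fgf2 is also the only 1 of the 8 genes with an entry in the RefSeq promoter table whose promoter holds a RUNX word. The table gives 250 bases before to 50 after each start on GRCm38.p6, and 9 promoters matched 8 of the 10 genes. The words TGTGGT and TGCGGT, searched on both strands, occur in 22.4% of all 32851 promoters. The Fgf2 promoter is shown because the gene floxed in these mice encodes a RUNX factor. It is chr3:37348403-37348702, forward strand, with the match in capitals, on the reverse strand and with its first base 136 bases before the start.
Fgf2: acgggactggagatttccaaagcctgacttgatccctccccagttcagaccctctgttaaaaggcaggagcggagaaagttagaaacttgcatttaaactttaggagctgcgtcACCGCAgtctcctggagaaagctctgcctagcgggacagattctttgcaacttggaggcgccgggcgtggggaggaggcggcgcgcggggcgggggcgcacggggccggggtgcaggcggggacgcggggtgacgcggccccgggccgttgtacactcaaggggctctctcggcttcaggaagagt
A match is a run of letters and not a measured site, and a window without a match says nothing about more distant sequence.

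Fgfr3 (Entrez gene 14184), the receptor of proliferating and prehypertrophic chondrocytes, lies on mm9 chromosome 5 at 34064373 to 34079716 on the forward strand. It measured 78.1, 30.0 and 61.5 FPKM (R3-Cntl SFZ) and 52.7, 109 and 24.4 FPKM (R3-cKO SFZ). DZ levels were 231, 152 and 152 FPKM (R3-Cntl) and 152, 134 and 117 FPKM (R3-cKO). No DZ library fell into the SFZ range of 24.4 to 109 FPKM, although R3-cKO SFZ replicate 2 came close to the lowest of them, R3-cKO DZ replicate 3, and the SFZ libraries differed widely among themselves. The DZ mean was 2.64 times the SFZ mean, with a log2 difference of 1.53 (SE 0.33; adjusted p = 0.00906 in limma). The two-sided exact permutation p was 0.00216, the smallest that 924 arrangements allow. All 6 DZ libraries against all 6 SFZ libraries separated upward for 1.64% of the genes tested and for 2 of the FGF genes, Fgfr3 and Fgfrl1.

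Fgfrl1 (Entrez gene 116701) encodes a receptor-like protein that binds FGFs and heparan sulfate but lacks a kinase domain, and it is strongly expressed in cartilage. It lies on chromosome 5 at 109123248 to 109135969, forward strand. It measured 64.2, 45.2 and 50.4 FPKM (R3-Cntl SFZ), 65.5, 59.0 and 54.9 FPKM (R3-cKO SFZ), 116, 96.5 and 133 FPKM (R3-Cntl DZ) and 89.7, 87.1 and 157 FPKM (R3-cKO DZ). The SFZ libraries kept within a narrow band and every DZ library exceeded them. The DZ mean was 2.0 times the SFZ mean (log2 difference 0.97, SE 0.16, limma adjusted p = 0.00271; exact permutation p = 0.00216). The call held in all 21 alternative settings, with adjusted p from 0.00240 to 0.00825.

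The promoters of Fgfr3 and Fgfrl1 are shown side by side because both genes were higher in the DZ. RefSeq lists a pair of starts for Fgfr3, at chr5:33721474-33721773 and chr5:33722056-33722355, and 1 for Fgfrl1, at chr5:108693979-108694278, all on the forward strand of GRCm38.p6. Capitals mark the ETS word CCGGAAG, found in 8.86% of all promoters, and the SOX words ACAAAG and ACAATG, found in 28.6%, each searched on both strands.
Fgfr3, first start: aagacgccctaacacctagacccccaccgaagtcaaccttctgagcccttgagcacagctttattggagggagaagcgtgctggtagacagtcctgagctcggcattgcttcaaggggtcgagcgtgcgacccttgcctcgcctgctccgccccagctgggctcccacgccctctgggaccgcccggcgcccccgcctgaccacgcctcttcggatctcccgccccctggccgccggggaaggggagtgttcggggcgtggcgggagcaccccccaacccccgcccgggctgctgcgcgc
Fgfr3, second start: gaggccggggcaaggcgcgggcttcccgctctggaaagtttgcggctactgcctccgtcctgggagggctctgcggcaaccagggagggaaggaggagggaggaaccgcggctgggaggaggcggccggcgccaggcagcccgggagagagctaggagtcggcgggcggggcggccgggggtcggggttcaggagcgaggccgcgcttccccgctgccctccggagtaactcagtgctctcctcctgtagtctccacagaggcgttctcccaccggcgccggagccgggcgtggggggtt
Fgfrl1: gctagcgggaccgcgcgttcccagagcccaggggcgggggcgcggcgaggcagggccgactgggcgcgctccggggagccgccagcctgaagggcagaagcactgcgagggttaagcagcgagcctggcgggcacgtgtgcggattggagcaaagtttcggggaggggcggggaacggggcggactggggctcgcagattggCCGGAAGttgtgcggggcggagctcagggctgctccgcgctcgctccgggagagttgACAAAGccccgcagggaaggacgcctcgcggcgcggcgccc
In Fgfrl1 the ETS word starts 48 bases before the transcription start and the SOX word ACAAAG at base 10 after it, while neither Fgfr3 window holds an ETS, SOX or RUNX word. All 3 windows are rich in G and C, at 69.7% and 73.0% for Fgfr3 and 73.7% for Fgfrl1.

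Fgfr1 (Entrez gene 14182), the main receptor of perichondrium and loose mesenchyme, lies on chromosome 8 at 26624126 to 26686186, forward strand, and its span encloses an annotated lincRNA on the other strand. It measured 50.3, 64.8 and 55.7 FPKM (R3-Cntl SFZ) and 66.3, 39.5 and 79.9 FPKM (R3-cKO SFZ). DZ levels were 26.1, 37.7 and 89.3 FPKM (R3-Cntl) and 27.5, 39.3 and 92.9 FPKM (R3-cKO). Replicate 3 of both DZ groups lay above every SFZ library and replicates 1 and 2 of both lay below, so the DZ libraries fell on both sides of the SFZ range. The difference was -0.34 (SE 0.34, limma adjusted p = 0.492; exact permutation p = 0.353).

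Within the DZ, Fgfr1 followed the replicate number far more closely than the genotype label. Libraries labelled R3-cKO had 1.05, 1.04 and 1.04 times the R3-Cntl level at numbers 1, 2 and 3, while number 3 was far above number 1 in both genotypes. Same-numbered DZ libraries resemble each other across all genes as well. The labels do not say what a number stands for, and what lies behind this spread was not tested.

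Fgfr2 (Entrez gene 14183), a receptor of mesenchymal condensations, perichondrium and bone-forming cells, measured 61.6, 83.8 and 68.2 FPKM (R3-Cntl SFZ) and 71.6, 75.1 and 117 FPKM (R3-cKO SFZ). DZ levels were 29.8, 51.5 and 71.1 FPKM (R3-Cntl) and 37.7, 58.6 and 65.7 FPKM (R3-cKO). DZ replicate 1 was lowest in both genotypes, and the upper DZ libraries overlapped the lower SFZ libraries. The SFZ mean was 1.52 times the DZ mean, with a difference of -0.62 (SE 0.22) that missed the threshold in limma (adjusted p = 0.0588) and an exact permutation p of 0.0152. Without R3-Cntl DZ replicate 3 it was -0.76, at a limma adjusted p of 0.0250. A block for the replicate number also brought the limma adjusted p under the threshold, to 0.0158, although which libraries share a mouse is not stated. A value per gene sums the splice forms of Fgfr2, so its epithelial and mesenchymal forms could not be read apart.

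Since FPKM is scaled to length, the receptor kinases can be compared with each other within a library. This share was chosen after the values were seen and carries no test. Fgfr3 made up 40.7, 16.6 and 32.7% of the summed FPKM of Fgfr1 to Fgfr4 in R3-Cntl SFZ and 27.6, 47.7 and 11.0% in R3-cKO SFZ. In the DZ it made up 79.5, 61.9 and 48.2% in R3-Cntl and 69.0, 56.0 and 42.1% in R3-cKO. Fgfr3 was thus the most abundant of the receptors in all 6 DZ libraries, and in the SFZ it was so only in R3-Cntl replicate 1 and R3-cKO replicate 2. Fgfr2 held 32.1 to 52.5% in the SFZ and 10.2 to 24.6% in the DZ, without overlap, and Fgfr1 held 17.2 to 35.9% and 8.96 to 33.4%. Shares are parts of the same sum, so a rise of Fgfr3 alone lowers that of Fgfr2. The FPKM of Fgfr2 overlapped between zones. The sum of the receptors itself was 181 to 229 FPKM in the SFZ and 220 to 316 FPKM in the DZ. Fgfr4, a receptor of liver and other epithelia, stayed at 0.402 to 2.95% of it.

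**Figure D3:**
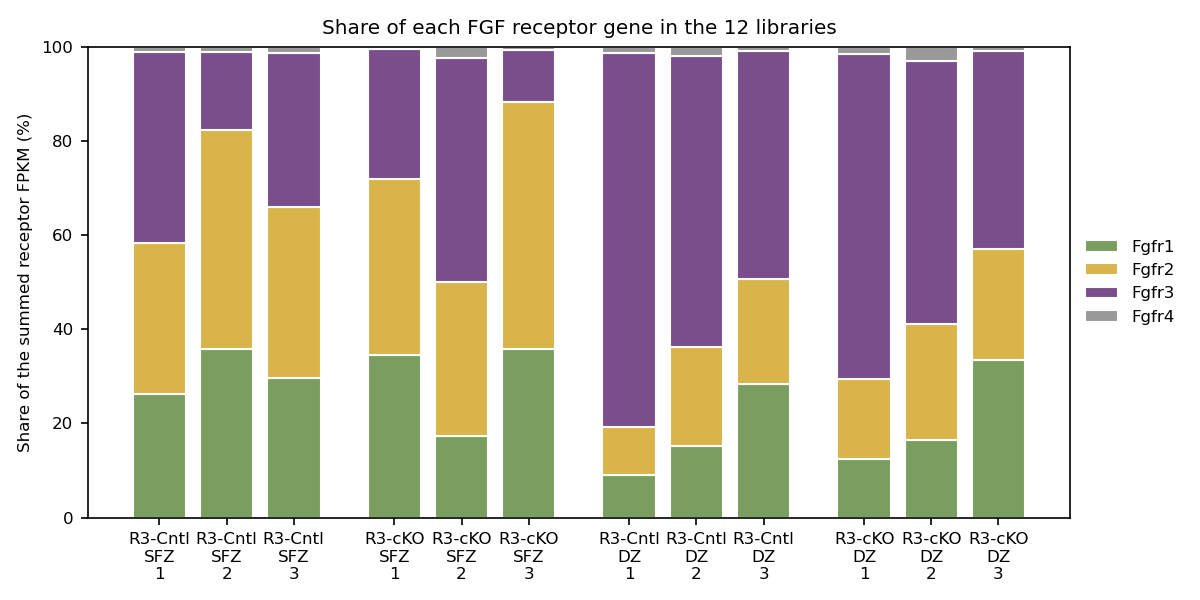
Share of Fgfr1, Fgfr2, Fgfr3 and Fgfr4 in their summed FPKM (percent, stacked to 100) in each of the 12 libraries, grouped by genotype label and zone. Fgfr3 takes 42.1 to 79.5% in DZ libraries and 11.0 to 47.7% in SFZ libraries, and Fgfr2 takes a larger share in every SFZ library than in any DZ library. A rise of Fgfr3 alone lowers the share of Fgfr2, whose FPKM overlaps between zones.

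The genes most like each receptor were ranked by Pearson correlation of log2(FPKM + 1) over the 12 libraries among 11765 genes. For Fgfr3 they were Cd24a (r = 0.989), which encodes a small cell surface glycoprotein, Cdk17 (0.965) and Btg3 (0.964). Cd24a kept an r of 0.988 once the 4 group means were removed, so it followed Fgfr3 between replicates as well as between zones. Its level was 118, 35.6 and 82.7 FPKM (R3-Cntl SFZ) and 74.4, 183 and 31.3 FPKM (R3-cKO SFZ), against 258 to 394 FPKM in the DZ. Fgfr1 was most like Abhd8 (0.966), Ldb1 (0.962) and Oaz2 (0.960), and Fgfr2 most like 1600012H06Rik (0.979), Clec16a (0.978) and Gulp1 (0.977). These are descriptions over 12 libraries that share zones and replicate numbers.

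Of the 4 feedback genes 3 were called lower in the DZ, where 18.9% of all genes tested were called lower, and Dusp6 was not. Of these 3, only Spry2 would have been tested on its DZ libraries alone. Spry1 (Entrez gene 24063), which encodes a Sprouty inhibitor of signalling between receptor and ERK, lies on mm9 chromosome 3 at 37538869 to 37543520, forward strand, 235 kb beyond the end of Fgf2. It measured 7.10, 7.73 and 3.62 FPKM (R3-Cntl SFZ) and 7.90, 2.76 and 3.99 FPKM (R3-cKO SFZ). DZ levels were 0.08, 0.35 and 1.49 FPKM (R3-Cntl) and 0.33, 0.80 and 0.55 FPKM (R3-cKO). The highest DZ library lay below the lowest SFZ library, and only R3-Cntl DZ replicate 3 reached 1 FPKM. The SFZ mean was 9.19 times the DZ mean, the log2 difference was -2.0 (SE 0.26, limma adjusted p = 0.00102) and the exact permutation p was 0.00216. Because DZ values are so low, the size depends on the pseudocount, from -3.20 with 0.1 to -0.88 with 5, and the call held at both.

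Spry4 (Entrez gene 24066), a Sprouty paralogue, measured 1.11, 2.71 and 1.95 FPKM (R3-Cntl SFZ), 1.34, 1.65 and 1.26 FPKM (R3-cKO SFZ), 0.23, 0.62 and 0.57 FPKM (R3-Cntl DZ) and 0.45, 0.80 and 0.28 FPKM (R3-cKO DZ). It was low everywhere but did not overlap between zones. The SFZ mean was 3.40 times the DZ mean (log2 difference -0.83, SE 0.15, limma adjusted p = 0.00457; exact permutation p = 0.00216), with -1.61 at a pseudocount of 0.1 and -0.28 at 5. Spry1 and Spry4 are the 2 of 10 FGF genes whose libraries separated downward in the DZ, as did 9.71% of all genes tested.

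Spry2 (Entrez gene 24064), on chromosome 14 at 106291166 to 106296036, reverse strand, was the most abundant Sprouty gene. It measured 5.18, 10.6 and 9.75 FPKM (R3-Cntl SFZ), 6.18, 9.50 and 10.7 FPKM (R3-cKO SFZ), 1.58, 4.29 and 3.30 FPKM (R3-Cntl DZ) and 4.47, 7.59 and 3.53 FPKM (R3-cKO DZ). R3-cKO DZ replicate 2 lay within the SFZ range and the other DZ libraries lay below it. The SFZ mean was 2.09 times the DZ mean (log2 difference -0.96, SE 0.25, limma adjusted p = 0.0186; exact permutation p = 0.0108), and the call held in each of the alternatives in which Spry2 was tested.

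Dusp6 (Entrez gene 67603), whose product dephosphorylates ERK, lies on chromosome 10 at 98725865 to 98730122, forward strand. It measured 4.38, 7.05 and 8.53 FPKM (R3-Cntl SFZ), 6.44, 8.77 and 3.37 FPKM (R3-cKO SFZ), 1.12, 5.36 and 4.05 FPKM (R3-Cntl DZ) and 4.22, 9.01 and 3.66 FPKM (R3-cKO DZ). R3-cKO DZ replicate 2 held the highest value of all 12 libraries and R3-Cntl DZ replicate 1 the lowest, and the zones overlapped. The difference of -0.50 (SE 0.33) did not pass (limma adjusted p = 0.296; exact permutation p = 0.190).

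The promoters of Spry1 and Spry2 are given because both transcripts were lower in the DZ. They lie at chr3:37639697-37639996 on the forward strand and chr14:105896770-105897069 on the reverse strand of GRCm38.p6, and the capitals in Spry2 mark the SOX word ACAAAG, read on the opposite strand from 137 bases before the start.
Spry1: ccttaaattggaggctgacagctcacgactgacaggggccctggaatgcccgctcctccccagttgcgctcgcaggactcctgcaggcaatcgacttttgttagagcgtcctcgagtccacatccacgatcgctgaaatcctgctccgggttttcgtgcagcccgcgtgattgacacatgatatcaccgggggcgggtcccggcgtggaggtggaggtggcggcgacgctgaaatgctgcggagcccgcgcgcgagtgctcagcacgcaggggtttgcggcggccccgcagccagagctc
Spry2: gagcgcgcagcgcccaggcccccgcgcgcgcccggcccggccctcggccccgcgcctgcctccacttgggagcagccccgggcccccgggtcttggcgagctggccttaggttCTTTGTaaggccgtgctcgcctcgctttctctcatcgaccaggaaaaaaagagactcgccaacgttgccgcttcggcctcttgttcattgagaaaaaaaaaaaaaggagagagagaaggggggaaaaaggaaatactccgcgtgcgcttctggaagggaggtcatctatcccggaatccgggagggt
The words TGAATGAA and TGAATGGA, bound by the repressor Capicua at several ERK-induced genes, occur in 2.47% of all promoters on either strand and in 0 of the 9 promoters of these FGF genes. No ETS or RUNX word was present in the Spry1 or Spry2 window.

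Within R3-Cntl alone, 1 of the 10 FGF genes passed (Fgfrl1), against 1.24% of 11336 genes, and within R3-cKO alone 0 of 10 passed, against 0.0176%, or 2 genes. At an unadjusted p under 0.05 limma counted 3102 and 1602 genes. All 10 FGF genes, called or not, had the same sign within each genotype as over both. The fit over both genotypes uses these same libraries, so this agreement is no separate support for the 5 calls. Fgfr3 differed by 1.72 (SE 0.36) in R3-Cntl and 1.34 (SE 0.51) in R3-cKO, Fgfrl1 by 1.10 (SE 0.18) and 0.83 (SE 0.25), and Spry1 by -2.16 (SE 0.38) and -1.83 (SE 0.33). Spry2 differed by -1.24 (SE 0.34) and -0.68 (SE 0.29), and Spry4 by -0.96 (SE 0.24) and -0.69 (SE 0.18). The Fgfrl1 call in R3-Cntl was marginal at a limma adjusted p of 0.0489 and was lost when any library but R3-Cntl SFZ replicate 1 was left out, at up to 0.242, and under both scalings, both other pseudocounts and both other filters. Same-numbered libraries pair across zones in R3-cKO, and with the replicate number as a block 352 genes were called there in place of 2, with 0 of the FGF genes among them. With 3 libraries against 3 the exact permutation test cannot go below 0.1. It gave that value in R3-Cntl for Fgfr3, Fgfrl1, Fgf18, Spry1, Spry2 and Spry4. In R3-cKO it did so for Fgfr2, Fgfr3, Fgfrl1, Spry1 and Spry4. The share of all genes at that value within a genotype is not given, so these lists show nothing particular to the FGF genes.

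Genes around these in the pathway were read in the same fit, by list. Among 20 other FGF ligand genes, 4 were tested, 2 were called lower in the DZ (18.9% of all genes), and 15 stayed under 1 FPKM in every library. Fgf7, a ligand of mesenchymal cells that acts on epithelial FGFR2, measured 12.0, 29.4 and 24.3 FPKM (R3-Cntl SFZ), 21.2, 28.6 and 43.0 FPKM (R3-cKO SFZ), 1.22, 5.11 and 6.79 FPKM (R3-Cntl DZ) and 12.3, 16.4 and 5.32 FPKM (R3-cKO DZ). Its SFZ mean was above that of any other FGF ligand gene, and only R3-cKO DZ replicates 1 and 2 reached the SFZ range (log2 difference -1.81, SE 0.38, limma adjusted p = 0.00757). Fgf10, its close relative, ran from 0.20 to 2.82 FPKM in the SFZ and from 0.02 to 0.13 FPKM in the DZ, with -0.98 (SE 0.23, limma adjusted p = 0.0131). Fgf10 passed the filter through SFZ libraries alone. The endocrine ligand Fgf21 (6.09 to 24 FPKM in the SFZ, 7.78 to 37.3 FPKM in the DZ) and the intracellular Fgf13 (3.35 to 10.2 and 1.87 to 13.7 FPKM) overlapped between zones and were not called. The list median was -0.53, beside -0.14 for all genes.

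Among Fgfr4 and the co-receptors Kl and Klb, only Fgfr4 was tested, at 0.77 to 5.13 FPKM in the SFZ and 2.46 to 7.05 FPKM in the DZ. Its difference of 0.66 (SE 0.29) did not pass (limma adjusted p = 0.12), and of the scalings it passed under quantile normalization, at 0.93 with an adjusted p of 0.0475. Of 21 tested genes for heparan sulfate and FGF binding, 1 was called higher and 2 lower, where 4.30% and 18.9% of all genes were, and the list median was -0.33. Median-of-ratios scaling turned this to 3 higher and 1 lower with a median of -0.17, and quantile normalization to 1 higher and 1 lower. The syndecan Sdc4 ran from 78.3 to 119 FPKM in the SFZ and from 129 to 174 FPKM in the DZ (log2 difference 0.54, SE 0.12, limma adjusted p = 0.0107). Sdc1, another syndecan, ran from 28 to 39.0 and from 13.3 to 27.1 FPKM (-0.60, SE 0.16, adjusted p = 0.0188), and Ndst2, a sulfotransferase, from 7.18 to 8.65 and from 4.41 to 7.56 FPKM (-0.40, SE 0.09, adjusted p = 0.0105). Sdc4 thus separated the zones upward in the DZ and Sdc1 downward, as did 1.64% and 9.71% of all genes tested. The syndecans Sdc2 and Sdc3 overlapped between zones and were not called. The Sdc1 call was lost under median-of-ratios scaling (adjusted p = 0.0592) and without R3-Cntl SFZ replicate 2, and that of Ndst2 under quantile normalization (0.0883).

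All 18 adaptors and kinases from receptor to ERK were tested, with 2 called higher and 3 lower (4.30% and 18.9% of all genes) and a list median of -0.11. Frs2, the docking protein of FGF receptors, ran from 17.5 to 21.4 FPKM in the SFZ and from 22.9 to 27.4 FPKM in the DZ without overlap (log2 difference 0.37, SE 0.06, limma adjusted p = 0.00321). Shc1, an adaptor of many receptor kinases, ran from 44.4 to 63.2 and from 27.0 to 41.5 FPKM (-0.55, SE 0.11, adjusted p = 0.00628). Both calls held in all 21 alternative settings. Araf, a Raf kinase (0.24, adjusted p = 0.0351), and Mapk3, which encodes ERK1 (-0.41, adjusted p = 0.0285), were less secure, with calls lost in 9 and 5 of the 12 fits that each left out 1 library, and for Mapk3 under both scalings. Under median-of-ratios scaling 3 of these genes were called higher and 1 lower, and the list median became 0.05.

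Among 17 tested genes that ERK signalling induces or that restrain it, 6 were called lower in the DZ and 1 higher (18.9% and 4.30% of all genes), with 14 negative and 3 positive estimates and a list median of -0.56. Flrt2, a transmembrane protein that binds FGF receptors, ran from 9.51 to 26.4 FPKM in the SFZ and from 0.73 to 5.4 FPKM in the DZ (log2 difference -2.05, SE 0.32, limma adjusted p = 0.00222). Spred2, a Sprouty-related inhibitor of Raf activation, ran from 5.58 to 8.06 and from 1.32 to 4.41 FPKM (-0.87, SE 0.18, adjusted p = 0.00745). Neither overlapped between zones, and both calls held in every alternative in which the gene was tested. Etv4, an ETS factor of the FGF pathway (-0.84, SE 0.27, adjusted p = 0.0415), lost its call in 9 of 17 settings, among them both scalings and 5 of the 9 fits without 1 library in which it was tested. Dusp7 (-0.50), Il17rd (-0.73) and Spry3 (0.59) were also called and are named after their values were seen. Il17rd lost its call under quantile normalization and in 5 of the 12 fits that each left out 1 library. Spry3 lost its call in 7 of these 12 fits and in 1 other setting. It was the only Sprouty gene with a higher estimate in the DZ, at 0.27 to 1.19 FPKM in the SFZ and 1.01 to 2.63 FPKM in the DZ. The count of 6 lower became 4 under median-of-ratios scaling, 3 under quantile normalization and 3 without R3-Cntl SFZ replicate 2 or R3-Cntl DZ replicate 1. Etv4 passed the filter through SFZ libraries alone, Il17rd mainly through them and Spry3 mainly through DZ libraries.

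Immediate early genes, which respond to many stimuli besides FGF, gave 1 call in 11, lower in the DZ as were 18.9% of all genes, for Egr2 (-0.70, SE 0.23, limma adjusted p = 0.0439), with a list median of -0.30. Egr2 ran from 0.64 to 3.10 FPKM in the SFZ and from 0.01 to 0.71 FPKM in the DZ, passed the filter through SFZ libraries alone, and its call was lost under both scalings. With either scaling 1 other gene was called higher in its place (Jund, named after its values were seen). In the same fit, where 4.30% of all genes were called higher and 18.9% lower, 10 of 13 cartilage matrix genes were called higher in the DZ (list median 1.57), 9 of 10 fibroblast genes lower (-3.00), 3 of 3 tendon genes lower (-1.27), 5 of 5 macrophage genes lower (-1.58) and 4 of 9 superficial zone genes lower (-1.0). Of 5 osteoblast genes 1 was called lower (Bglap, -2.26), and of 2 muscle genes and 1 keratinocyte gene 0 were called. Under quantile normalization the first 5 of these counts were 9, 8, 3, 3 and 4, and under each scaling 1 superficial zone gene was called higher, as was Dcn of the fibroblast list under median-of-ratios scaling. In fits that left out 1 library, the macrophage genes Adgre1, Lyz2 and C1qa and the fibroblast gene Pdgfra each lost their calls in 9 of 12. Of the cartilage list, Comp lost its call in 8, Hapln1 in 6, Matn1 in 3 and Ucma in 2 of these fits, and Col2a1 under quantile normalization and without a filter. Csf1r, Adgre1 and Creb5 passed the filter through SFZ libraries alone, so their being tested already depended on that zone. These marker genes were named after their values were seen. Spry1, Spry2 and Spry4 thus moved in the direction of the fibroblast, tendon and macrophage lists, and Fgfr3 and Fgfrl1 in the direction of the cartilage matrix list, and how far these lists account for either was not tested.

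**Figure D4:**
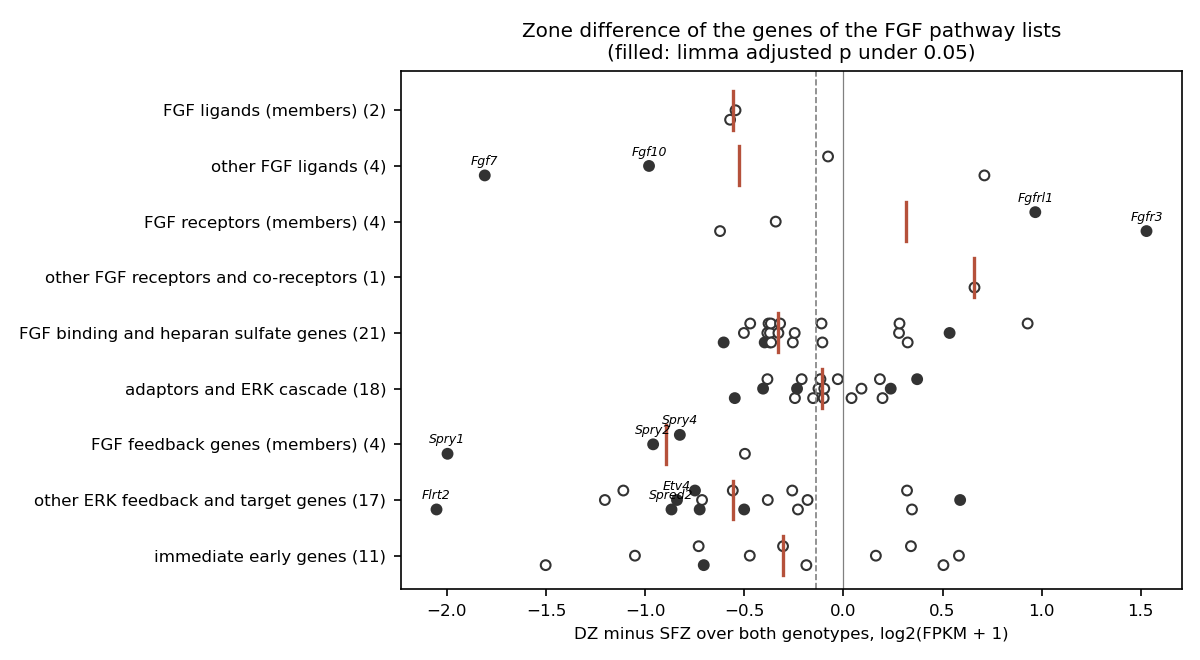
Zone difference over both genotypes (DZ minus SFZ, log2(FPKM + 1)) of the tested genes of each FGF pathway list, with the number tested in brackets. Circles are genes, filled where the limma adjusted p is under 0.05, red lines are list medians, and the dashed line is the median of all genes tested at -0.14. Called genes of the feedback lists lie to the left but for Spry3, and Fgfr3 and Fgfrl1 are the called genes farthest to the right.

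Between genotype labels, 0 of the 10 FGF genes were called in the SFZ, against 0% of 11537 genes, and 0 of the 7 tested were called in the DZ, against 0% of 11091 genes. In limma 34 (0.295%) and 404 genes (3.64%) had an unadjusted p under 0.05, and none of the FGF genes was among them. Both shares are under what that threshold gives on average without any difference. The absence of FGF genes thus does not show that the labels do not differ. Fgf18, Spry1 and Spry4 were under the filter in the DZ, so no model p is given for them there. In the SFZ the estimates ran from -0.32 (SE 0.39) for Spry1 to 0.27 (SE 0.23) for Fgfr2, with no limma adjusted p near the threshold. For 0 of 10 genes did the SFZ libraries of one label lie wholly above or below those of the other, against 1.45% of all genes upward and 0.953% downward. Fgfr3 shows how wide the spread was, with -0.01 (95% interval -1.46 to 1.44) in the SFZ.

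In the DZ Fgfr3 was lower in the libraries labelled R3-cKO, at 134 ± 17.5 FPKM against 179 ± 45.6 FPKM (SD, n = 3), with no overlap of the values by a margin of under 1 FPKM. The difference was -0.39 (SE 0.21; adjusted p = 0.999 in limma), and permutation of the labels gave an exact p of 0.1, the smallest possible. The R3-cKO level was 0.658, 0.877 and 0.769 times that of R3-Cntl at numbers 1, 2 and 3. Of the 13 cartilage matrix and growth plate genes, 12 also had lower estimates in these libraries, with a list median of -0.42 beside 0.05 for all genes. So did 4 of 5 osteoblast genes (list median -1.32) and both macrophage genes tested (-0.70), and 0 genes of these lists were called. Fgfr3 was the 1 of 10 FGF genes to separate downward, as did 2.78% of all genes tested, with 0 of 10 separating upward, against 5.26%. DZ libraries with the same number resemble each other, and with that number as a block no FGF gene was called either, with 0.218 as the lowest adjusted p for Fgfr3.

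Spry2 and Dusp6 had the largest positive estimates in the DZ, at 0.62 (SE 0.34) and 0.61 (SE 0.47), and neither passed. Spry2 was 2.83, 1.77 and 1.07 times as high in the libraries labelled R3-cKO at numbers 1, 2 and 3. Fgf18, which was not tested there by the model, was 2.17, 2.14 and 2.38 times as high, at 1.37 ± 0.586 FPKM against 0.607 ± 0.235 FPKM (SD, n = 3), and R3-cKO DZ replicate 1 fell between R3-Cntl DZ replicates 2 and 3 (exact permutation p = 0.2). The remaining estimates ran from -0.09 (SE 0.26) for Fgfrl1 to 0.27 (SE 0.35) for Fgf2.

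**Figure D5:**
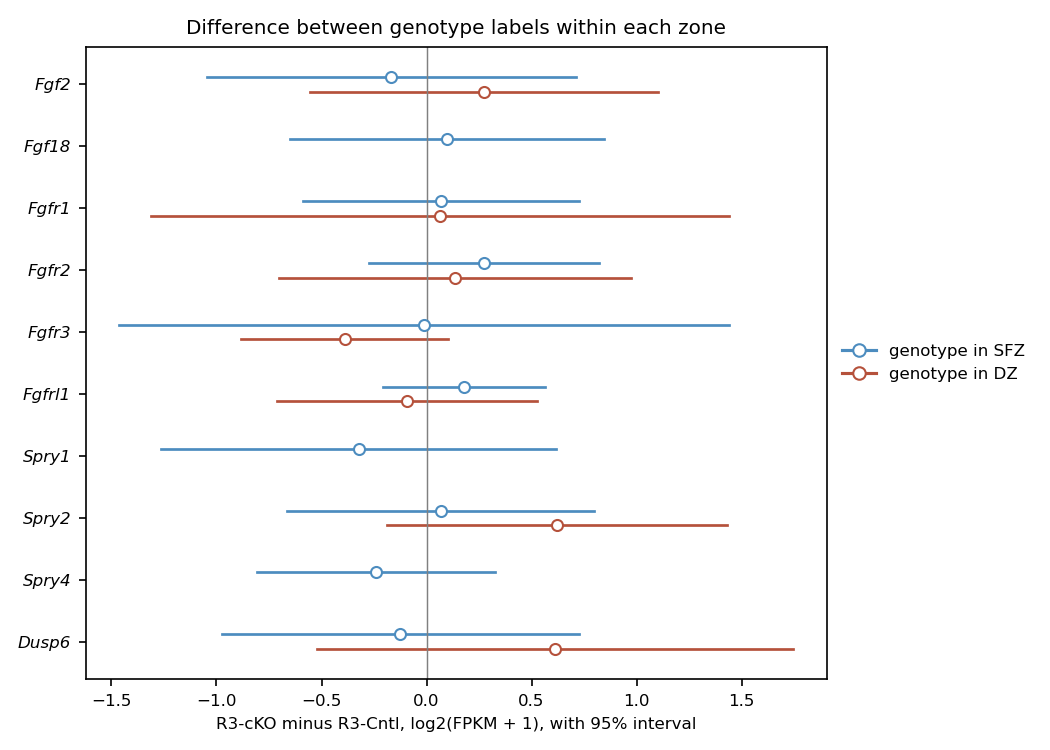
Difference between genotype labels for each FGF gene, R3-cKO minus R3-Cntl in log2(FPKM + 1), within the SFZ (blue) and the DZ (red), as limma estimates with 95% intervals. Every interval includes 0, and Fgf18, Spry1 and Spry4 have no DZ estimate because they fell under the filter on low values.

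Whether zone differences themselves depended on the genotype label was tested as an interaction over all 12 libraries. It called 0 of the 10 FGF genes, against 0% of 11765 genes, with 99 genes (0.841%) at an unadjusted p under 0.05 in limma. All 4 receptor estimates were negative, from -0.38 (SE 0.68) for Fgfr3 to -0.01 (SE 0.70) for Fgfr1. The ligand and feedback estimates were all positive, from 0.27 (SE 0.31) for Spry4 to 0.74 (SE 0.65) for Dusp6, so that, for every gene but Fgfr1 and Fgfr2, the zone estimate was nominally smaller in the libraries labelled R3-cKO. None exceeded its error by enough to pass, with each limma adjusted p at 0.999 or above.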

How the data were processed

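The authors sequenced 100-bp paired-end reads on a BGISEQ-500, mapped them to mm9 (Bowtie 0.12.2 is named in the submitters' processing notes) and deposited 1 value per gene and library. The deposited values are FPKM scaled between libraries by TMM, as far as the values and the table's name tell. The unit is inferred. Counts were not used here, so depth and counting error are unknown. In the study's methods, linear models follow quantile normalization.

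Genotype, zone and replicate number were taken from the sample titles, and 0 columns were left unmatched. Values were analysed as log2(FPKM + 1) with limma 3.58.1 in R 4.3.3, with empirical Bayes moderation, a mean-variance trend and Benjamini-Hochberg adjustment over all genes tested, after a filter of at least 1 FPKM in at least 3 libraries of the fit. The fit was tested on simulated data, and no conclusion here rests on that test. Zone over both genotypes had genotype as a covariate. Zone within a genotype and genotype within a zone used their own 6 libraries, and the interaction used all 12. A two-sided exact permutation of the labels served single genes (Python 3.11.15, NumPy 2.4.6, SciPy 1.17.1). P-values measure the spread between libraries, which come from 3 littermates a genotype as far as the study states, so that the zones share animals.

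The alternatives changed the filter (none, or a mean of 10 FPKM or more), the pseudocount (0.1 or 5), the scaling (quantile, or size factors by median of ratios), the model (a block for the replicate number, 1 model for all 12 libraries, or no trend) and the libraries (each left out in turn). Alternatives for called genes of the pathway and marker lists were added after the values were seen. The 10 genes and the lists were chosen with earlier results of these data known. Genes named from a list are those called between zones over both genotypes or, beyond 4, the 4 with the largest difference, and exceptions are stated. The 3 genes most like each receptor kinase were named by Pearson correlation.

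Same-numbered libraries were taken as pairs where every pair's deviations from the group means correlated above 0.1 over 11359 genes. This held between genotypes in the DZ (0.65, 0.78 and 0.69) and between zones in R3-cKO (0.42, 0.78 and 0.65). Gene coordinates are those of GENCODE vM1 on NCBIM37 (mm9), and promoters those of RefSeq on GRCm38.p6. Coordinates of Fgfr2 are not given, since its annotated span covers other genes.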

Additional observations from a re-analysis of the deposited data

How the results depend on the processing

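Over both genotypes every member kept its zone direction in all settings, and of 204 member values 197 stayed on the same side of the threshold and 7 became calls. Genes called fell to 1162 with a mean of 10 FPKM or more, where 2 members and 1 ERK feedback gene lower in the DZ were called because fewer genes were tested. Leaving out 1 library gave 1624 (R3-Cntl SFZ replicate 2) to 2899 genes (R3-cKO SFZ replicate 2), and 3 (R3-Cntl SFZ replicate 2 or R3-Cntl DZ replicate 1) to 7 ERK feedback genes (R3-cKO DZ replicate 2), with 3 under quantile normalization. A block for the replicate number called 3965 of the 11765 genes tested, in place of 2725, and 8 members. The members it added were Fgfr2 (limma adjusted p = 0.0158), Fgf2 (0.0313) and Fgf18 (0.0247). The numbers pair across zones in R3-cKO (same-numbered r of 0.42, 0.78 and 0.65) but not in R3-Cntl (0.58, 0.11 and -0.15). Between genotypes they pair in the DZ (0.65, 0.78 and 0.69) and not in the SFZ (0.79, -0.09 and -0.42). In R3-Cntl the zone comparison called 0 genes without a filter, 8 with a mean of 10 FPKM or more, 88 and 29 with pseudocounts of 0.1 and 5, 1 under quantile normalization and 17 with size factors, and 0 members in each of these. The block called 831 genes and 4 members, and 1 model for all 12 libraries 798 genes and 3 members. Leaving out 1 library gave 0 genes and 0 members (SFZ replicate 2) to 505 genes and 2 members (SFZ replicate 1). In R3-cKO it called 5 genes without a filter, 0 with a mean of 10 FPKM or more, 1 with each pseudocount, 352 with the block, 165 genes and 1 member in 1 model, and 0 (without SFZ replicate 1) to 5 genes (without SFZ replicate 3). Unfiltered, 1 gene was called between genotypes in the DZ. Reversals were confined to uncalled differences. For zone, leaving out libraries moved Fgfr1 from -0.83 (DZ replicate 3) to 0.0363 (DZ replicate 1) in R3-Cntl and from -0.83 to 0.0265 (same numbers) in R3-cKO, and Dusp6 in R3-cKO from -0.47 (DZ replicate 2) to 0.13 (SFZ replicate 2), with 0.0307 under quantile normalization. For genotype in the SFZ, Fgfr1 ran from -0.14 (without R3-cKO replicate 3) to 0.36 (R3-cKO replicate 2), Fgfr3 from -0.54 (R3-cKO replicate 2) to 0.52 (R3-cKO replicate 3) with 0.000150 under size factors, Fgf2 from -0.45 (R3-Cntl replicate 1) to 0.15 (R3-cKO replicate 1), Fgf18 from -0.14 (R3-Cntl replicate 1) to 0.33 (R3-Cntl replicate 2), Spry2 from -0.22 (R3-Cntl replicate 1) to 0.28 (R3-cKO replicate 1) and Dusp6 from -0.38 (R3-cKO replicate 2) to 0.20 (R3-cKO replicate 3). For genotype in the DZ, Fgfr1 ran from -0.43 (without R3-cKO replicate 3) to 0.56 (R3-Cntl replicate 3) with -0.00819 under quantile normalization, Fgfr2 from -0.20 (R3-Cntl replicate 1) to 0.42 (R3-Cntl replicate 3), Fgfrl1 from -0.37 (R3-cKO replicate 3) to 0.0564 (R3-cKO replicate 2) and Fgf2 from -0.0899 (R3-cKO replicate 2) to 0.47 (R3-cKO replicate 3). For the interaction, Fgfr1 ran from -0.50 (without R3-cKO DZ replicate 3) to 0.49 (R3-Cntl DZ replicate 3), Fgfr2 from -0.47 (R3-Cntl DZ replicate 1) to 0.14 (R3-Cntl DZ replicate 3) and Fgfr3 from -0.91 (R3-cKO SFZ replicate 3) to 0.15 (R3-cKO SFZ replicate 2). The cause of these moves was not tested. Read depth is unknown, so what it limits could not be measured.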
